A study of Mus musculus with 4 samples.

Results

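The genes described here are 10 members of the Notch pathway in mouse: the ligands Jag1, Jag2 and Dll1, the receptors Notch1, Notch2, Notch3 and Notch4, and the target genes Nrarp, Hes1 and Hey1. They were chosen by name, and each is represented by its brightest probe set among those that the array's gene table assigns to that gene alone, which left all 10 measured among 19938 genes. The study asked which genes change when Py2T cells, a mouse breast cancer line known to come from a mammary tumour of an MMTV-PyMT transgenic mouse, undergo epithelial-mesenchymal transition (EMT). One group of 2 arrays came from cells given TGFβ at 2 ng/ml for 5 days, and the other group of 2 arrays from cells left without treatment. Both groups are the same cell line in the same serum-containing medium, so the comparison stands for 1 line, 1 dose and 1 time. The labels call the replicates biological and do not say how the cultures were kept apart, so each p-value reflects only how far these cultures vary.

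Notch signalling runs between touching cells. A ligand of the Jagged or Delta-like family on one cell pulls on a Notch receptor of its neighbour, metalloproteases and then γ-secretase cut the receptor, and the freed intracellular part enters the nucleus. There it joins the DNA-binding protein Rbpj and a Mastermind coactivator and switches on genes such as Hes1, Hey1 and Nrarp. In the mammary gland the pathway is known for its part in luminal cell fate, and in cultured epithelial cells it is known to take part in responses to TGFβ.

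Values are RMA expression values on the log2 scale, on which 1 unit is a 2-fold difference in signal. The medians over all probe sets lay between 6.742 and 6.756 in the 4 arrays. The table gives no detection calls, and 2 arrays a group limit the precision. Markers of luminal or general epithelium were bright. Their means over 5 markers were 12.1 and 12.3 in TGFβ arrays and 12.7 and 12.7 in untreated arrays. Of the 5, 2 fell, Cdh1 (-1.25) and Epcam (-1.10), while Krt8 (0.06), Krt18 (-0.11) and Krt7 (-0.14) were not called. The 3 basal markers had means of 7.64 and 7.42 in TGFβ arrays and 7.88 and 8.19 in untreated arrays, and 1 of them, the basal keratin Krt14, fell (-1.38, adjusted p = 0.0432), while Krt5 and Trp63 were dim in every array. Over all 19938 genes limma called 13.6%, and 5200 had an unadjusted p under 0.05. Of 6 endothelial markers 0 were called by limma and 0 had an unadjusted p under 0.05, with values between 4.82 and 6.60 in every array. Ptprc, the pan-leukocyte gene, measured 5.49 and 5.56 in TGFβ arrays and 5.57 and 5.49 in untreated arrays. Of 5 leukocyte markers 0 were called and 1 had an unadjusted p under 0.05, the lysosomal gene Cd68 (-1.29, limma adjusted p = 0.0518). Of 6 fibroblast markers 1 was called (16.7%, near the 13.6% of all genes), Col1a1, which rose by 0.46. An unadjusted p under 0.05 was found for 2 of the 6, the other being Pdgfra (0.49, limma adjusted p = 0.0965). The mean of the fibroblast list was 6.85 and 7.01 in TGFβ arrays and 6.75 and 6.80 in untreated arrays. Calls of 3 of these markers were lost when 1 array was dropped. They were Krt14 (-0.99 with TGFβ replicate 2 dropped and -1.03 with untreated replicate 2 dropped), Cdh1 (-1.24 with untreated replicate 1 dropped), and Col1a1 (0.43 and 0.49 with TGFβ replicate 1 or 2 dropped and 0.37 with untreated replicate 1 dropped).

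The comparison of TGFβ-treated with untreated cells showed opposite changes within the ligands and within the receptors. Jag1 rose 7.20-fold while Jag2 and Dll1 were 3.39-fold and 2.20-fold lower. Of the receptors, Notch1 and Notch3 fell, Notch4 rose and Notch2 did not pass the test. Of the targets, Nrarp was 1.99-fold lower, and Hes1 and Hey1 did not pass. In a bulk measurement fewer cells with a transcript and less of it per cell cannot be told apart.

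**Figure D1:**
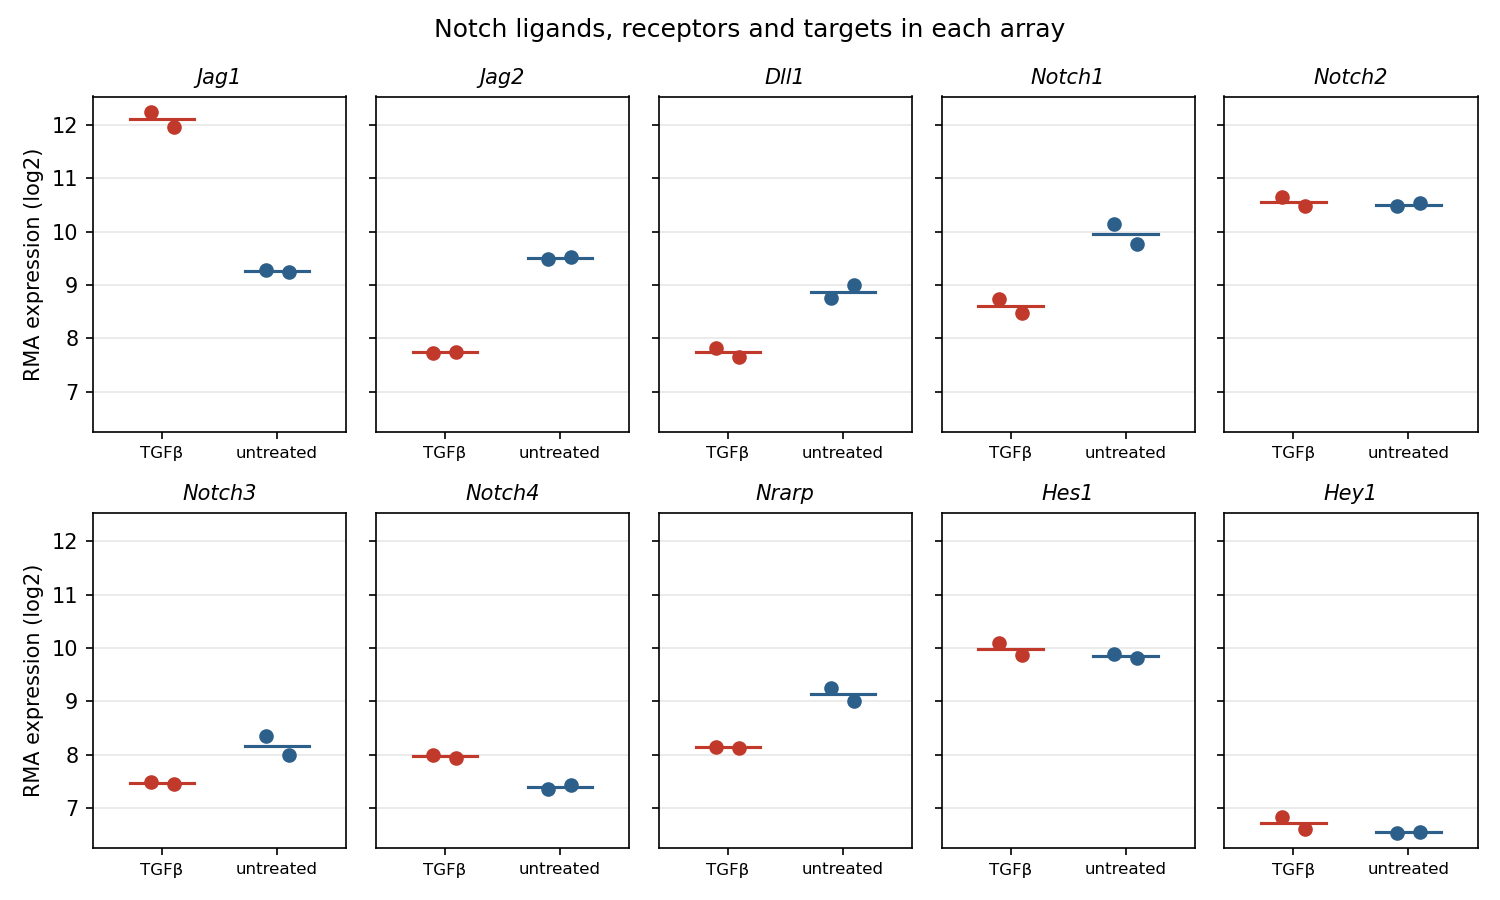
Each panel plots 1 gene, with RMA expression (log2) on the vertical axis, 1 point per array and a bar at the mean of the 2 arrays of a group. Jag1 stands near 12.1 in TGFβ arrays and near 9.25 in untreated arrays, while Jag2, Dll1, Notch1, Notch3 and Nrarp lie lower in TGFβ arrays.

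With limma and p-values adjusted over all 19938 genes, 2 of the 10 members were called higher, 5 lower and 3 not at all, at an adjusted p under 0.05. Over all genes 13.6% were called, 6.49% as higher and 7.15% as lower. The count of 2720 called genes moved with the arrays used: leaving out TGFβ replicate 1 or 2 gave 1811 or 2260, and leaving out untreated replicate 1 or 2 gave 1535 or 1764. The median absolute log2 difference was 0.843 over the 10 members and 0.101 over all genes. The arrays of the groups did not overlap for 8 of the 10 members, against 52.6% of all genes. The members were picked with earlier results of these arrays known, so these counts describe them and do not set them apart from other genes.

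**Figure D2:**
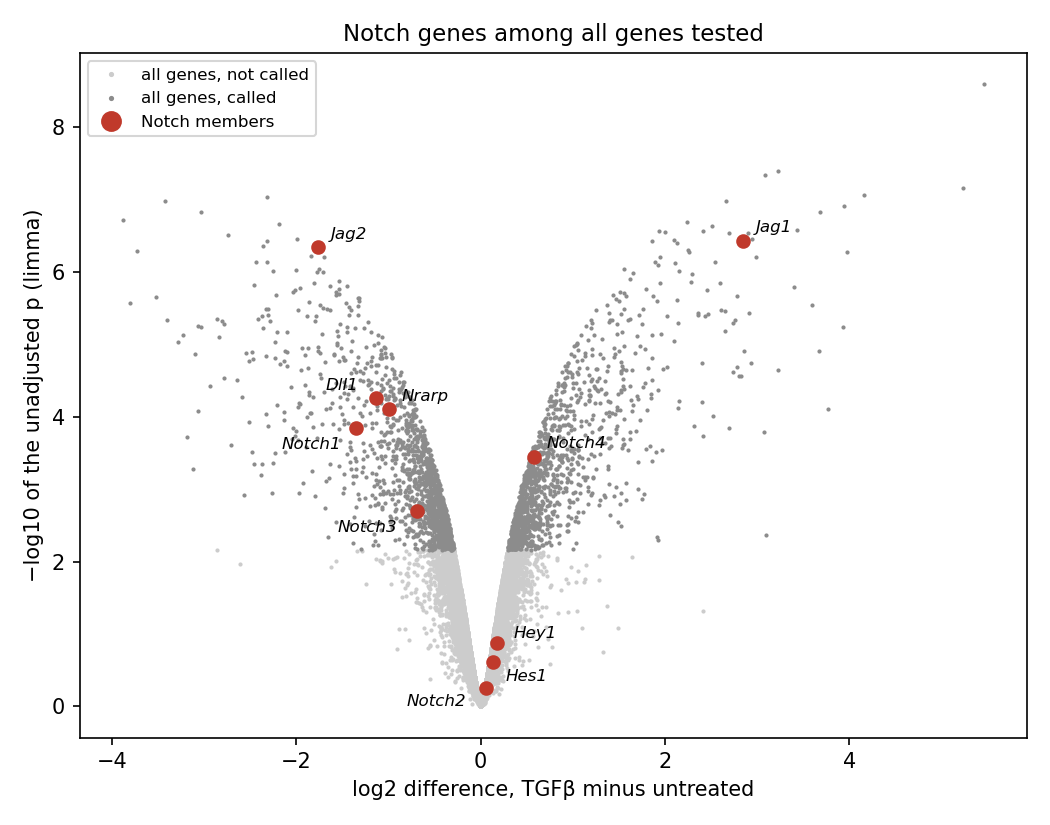
Each point is a gene, with the log2 difference of TGFβ minus untreated cells on the horizontal axis and −log10 of limma's unadjusted p on the vertical axis. The 10 Notch members are labelled: Jag1 lies far right at 2.85 and Jag2 far left at -1.76, while Notch2, Hes1 and Hey1 lie near 0 among the uncalled genes.

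The start regions of 4 members are shown, by role: Jag1 has the largest rise and Jag2 the largest fall of all members, Notch1 the largest fall among the receptors, and Nrarp is the target that fell. Each runs 5′ to 3′ on the gene's own strand from 250 bases before to 50 bases after the annotated start, from RefSeq on GRCm38.p6. Capitals mark the letters CAGAC or GTCTG (a box known to bind Smads, the transcription factors of TGFβ signalling) and GGAATG or CATTCC (a box known to bind TEAD factors, the family of Tead2 in the study's title).
Jag1, chr2:137116471-137116770, minus strand: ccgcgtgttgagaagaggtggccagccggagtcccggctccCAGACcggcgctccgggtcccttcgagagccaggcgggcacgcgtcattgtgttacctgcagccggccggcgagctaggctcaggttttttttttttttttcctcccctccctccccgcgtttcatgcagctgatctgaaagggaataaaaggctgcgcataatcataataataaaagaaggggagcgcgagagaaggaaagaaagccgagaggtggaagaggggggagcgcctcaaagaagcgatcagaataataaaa
Jag2, chr12:112929446-112929745, minus strand: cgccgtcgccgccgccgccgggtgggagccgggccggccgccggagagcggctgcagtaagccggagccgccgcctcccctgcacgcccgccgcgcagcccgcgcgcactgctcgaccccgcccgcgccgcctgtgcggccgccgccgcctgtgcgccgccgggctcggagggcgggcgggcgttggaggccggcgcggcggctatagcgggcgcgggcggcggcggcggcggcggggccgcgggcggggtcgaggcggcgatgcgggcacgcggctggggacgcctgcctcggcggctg
Notch1, chr2:26503773-26504072, minus strand: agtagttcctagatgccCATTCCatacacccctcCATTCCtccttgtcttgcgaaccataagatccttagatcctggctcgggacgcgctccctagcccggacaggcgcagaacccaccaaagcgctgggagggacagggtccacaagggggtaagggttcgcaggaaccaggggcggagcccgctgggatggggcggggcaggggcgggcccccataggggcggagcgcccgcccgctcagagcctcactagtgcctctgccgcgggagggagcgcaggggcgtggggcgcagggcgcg
Nrarp, chr2:25180508-25180807, plus strand: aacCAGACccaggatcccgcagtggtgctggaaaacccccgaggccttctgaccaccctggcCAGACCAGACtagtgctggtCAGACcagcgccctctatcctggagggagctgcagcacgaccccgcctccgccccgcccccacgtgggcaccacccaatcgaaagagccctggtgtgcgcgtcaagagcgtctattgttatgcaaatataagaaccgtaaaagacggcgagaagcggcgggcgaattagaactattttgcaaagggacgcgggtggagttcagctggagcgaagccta

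Both strands were searched, and a position is that of the leftmost base, counted from the start site. Jag1 held 1 Smad box, at -209, and Nrarp held 4, at -247, -188, -183 and -168. Notch1 held no Smad box and 2 TEAD boxes, at -233 and -216. Jag2 held neither box. Of all 32851 promoter entries of this length 49.6% held a Smad box and 14.7% a TEAD box. The Rbpj core TGGGAA, present in 25.6% of all entries, was in 0 of the 9 entries, which cover 8 members and not the targets Hes1 and Hey1, and the Zeb and Snail E-box CAGGTG, present in 20.2%, was in 1 member, Dll1. A Smad box was found in 5 of the 8 members and a TEAD box in 2 of them, Notch1 and Notch4. These are matches of letters in one window, not measured binding sites.

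Among the ligands, Jag1, a Jagged-family activator of Notch receptors, measured 12.25 and 11.96 in the TGFβ arrays, against 9.27 and 9.24 in the untreated arrays. Both TGFβ arrays stood far above both untreated arrays, and the untreated pair was tight. The log2 difference was 2.85 ± 0.11 (SE), with a 95% interval of 2.57 to 3.12 (limma adjusted p = 2.55e-04), and even the closest pair of arrays across groups differed by 2.69. Ordered from the largest rise, Jag1 stood at rank 25 of 19938 genes.

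Jag2, the second Jagged ligand, measured 7.73 and 7.74 in the TGFβ arrays, against 9.48 and 9.51 in the untreated arrays. The arrays of each group lay almost on top of each other, and the groups were far apart. Jag2 differed by -1.76 ± 0.07 on the log2 scale (SE), with a 95% interval of -1.94 to -1.59 (limma adjusted p = 2.78e-04), and the array pairs across groups ranged only from -1.78 to -1.74. Ordered from the largest fall, Jag2 stood at rank 117.

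Dll1, a Delta-like ligand, measured 7.81 and 7.66 in the TGFβ arrays, against 8.76 and 8.99 in the untreated arrays. The groups did not overlap. The log2 difference was -1.14 ± 0.11 (SE), with a 95% interval of -1.41 to -0.87 (limma adjusted p = 0.00253). The 3 ligands were thus all called, 1 higher and 2 lower, and the interval of Jag1 lay wholly above those of Jag2 and Dll1, although the difference between genes was not itself tested.

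Of the 4 further ligand genes, Dll3, Dll4, Dlk1 and Dlk2, 0 were called by limma. An unadjusted p under 0.05 was found for 2 of the 4, and for 5200 of all 19938 genes. Dll4, the Delta-like ligand known best from blood vessels, measured 6.89 and 6.82 in TGFβ arrays and 6.54 and 6.68 in untreated arrays (difference 0.25, adjusted p = 0.133). Dll3, a divergent Delta-like protein that is known to inhibit rather than activate Notch, measured 6.01 and 6.03 in TGFβ arrays and 6.20 and 6.24 in untreated arrays (difference -0.20, adjusted p = 0.146). Both genes were close to or below the median of all probe sets in every array, where a change would be hard to see.

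**Figure D3:**
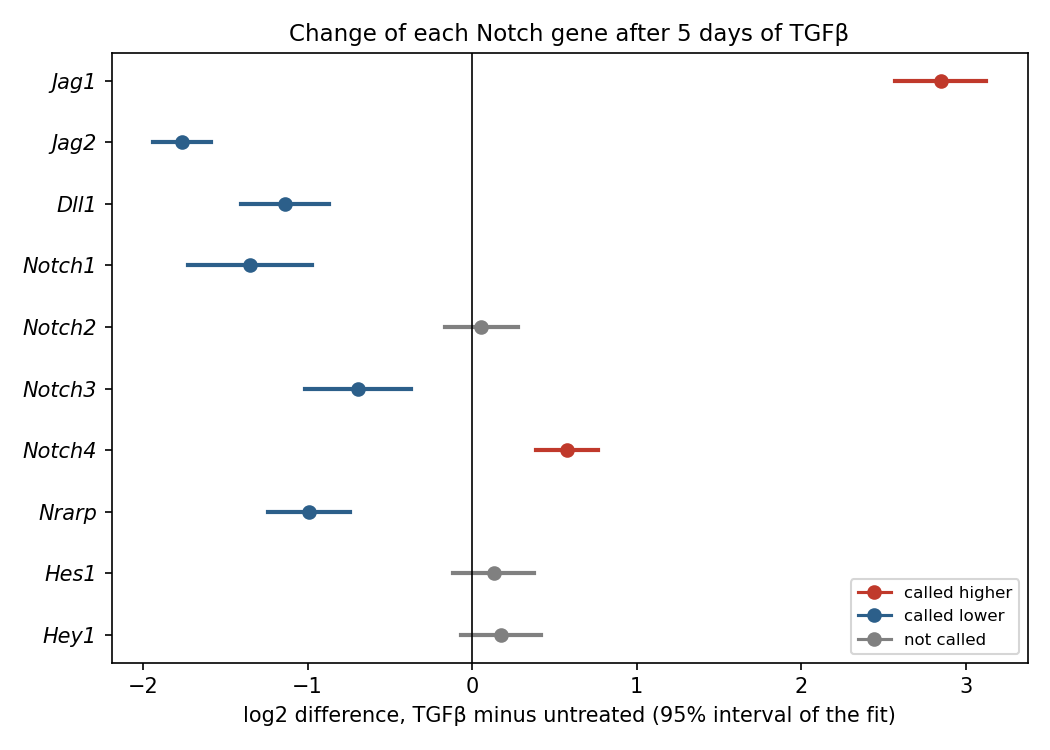
Each row is 1 Notch gene, with the log2 difference of TGFβ minus untreated cells as a point and the 95% interval of the fit as a line, coloured by the call. The intervals of Notch2, Hes1 and Hey1 cross 0, those of Jag1 and Notch4 lie above it, and those of Jag2, Dll1, Notch1, Notch3 and Nrarp lie below it.

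Among the receptors, Notch1, which is known to act in T-cell development and in many epithelia, measured 8.74 and 8.47 in the TGFβ arrays, against 10.14 and 9.77 in the untreated arrays. Both groups spread by about the same amount and did not overlap. Its difference was -1.35 ± 0.15 on the log2 scale (SE), with a 95% interval of -1.72 to -0.97 (limma adjusted p = 0.00447), a 2.55-fold lower signal. The E-cadherin gene Cdh1, Epcam and Krt14 were also lower in the same arrays. The other epithelial markers, Krt8, Krt18, Krt7, Krt5 and Trp63, were not called. The part of any of these markers in the falls of Notch1, Jag2 and Dll1 was not tested.

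Notch2, a receptor found in many tissues and the one with the smallest difference here, measured 10.66 and 10.47 in the TGFβ arrays, against 10.48 and 10.53 in the untreated arrays. The groups overlapped. The log2 difference was 0.06 ± 0.09 (SE), with a 95% interval of -0.16 to 0.28 (limma adjusted p = 0.803). With 2 arrays a group, a change of a size within that interval is not excluded. The interval of Notch1 lay wholly below that of Notch2, without a test between the genes.

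Notch3, known for its role in the smooth muscle and pericytes of vessels, measured 7.49 and 7.46 in the TGFβ arrays, against 8.35 and 7.98 in the untreated arrays. The TGFβ arrays were close together and below both untreated arrays, which spread more widely. Notch3 differed by -0.69 ± 0.13 on the log2 scale (SE), with a 95% interval of -1.02 to -0.37 (limma adjusted p = 0.0224). Leaving out either TGFβ array ended the call: the difference was -0.71 (adjusted p = 0.0688) when replicate 1 was dropped and -0.68 (adjusted p = 0.0680) when replicate 2 was. Of 6 pericyte and smooth muscle markers 1 was called (16.7%, near the 13.6% of all genes). It was the receptor gene Pdgfrb, which rose by 1.01 (adjusted p = 0.00111). The mean over those markers was 6.33 and 6.42 in TGFβ arrays and 6.14 and 6.21 in untreated arrays. All arrays are of the 1 line Py2T, and the part of the expression of these markers in the Notch3 value was not tested.

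Notch4, known mainly from endothelium and as a site of mouse mammary tumour virus insertion, measured 7.996 and 7.937 in the TGFβ arrays, against 7.344 and 7.433 in the untreated arrays. Both TGFβ arrays lay above both untreated arrays by more than either pair spread. Notch4 differed by 0.58 ± 0.08 on the log2 scale (SE), with a 95% interval of 0.39 to 0.77 (limma adjusted p = 0.00763), or 1.49-fold. The mean over the 6 endothelial markers was 5.59 and 5.65 in TGFβ arrays and 5.60 and 5.60 in untreated arrays. A further 6 probe sets are assigned to Notch4 together with Sympk, lie between 4.52 and 5.35 in all arrays and were not used.

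Among the targets, Nrarp, an ankyrin repeat protein that is induced by Notch and feeds back on the receptor's intracellular domain, measured 8.14 and 8.13 in the TGFβ arrays, against 9.25 and 9.01 in the untreated arrays. The TGFβ arrays were nearly identical and below both untreated arrays. Nrarp differed by -0.99 ± 0.10 on the log2 scale (SE), with a 95% interval of -1.24 to -0.74 (limma adjusted p = 0.00308).

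Hes1, a repressor of the hairy and enhancer of split family that other pathways can induce as well, measured 10.10 and 9.87 in the TGFβ arrays, against 9.89 and 9.82 in the untreated arrays. The groups overlapped. The log2 difference was 0.13 ± 0.10 (SE), with a 95% interval of -0.12 to 0.38 (limma adjusted p = 0.530). It was 0.015 when TGFβ replicate 1 was dropped and 0.25 when TGFβ replicate 2 was.

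Hey1, a related repressor, measured 6.83 and 6.59 in the TGFβ arrays, against 6.53 and 6.54 in the untreated arrays. Both TGFβ arrays were above both untreated arrays, by as little as 0.053 for the closest pair. The log2 difference was 0.17 ± 0.10 (SE), with a 95% interval of -0.07 to 0.42 (limma adjusted p = 0.366). Dropping TGFβ replicate 1 gave 0.057 and dropping TGFβ replicate 2 gave 0.29. Its mean level over the arrays was at the percentile 41.6 of all genes, the lowest of the members. Of the 3 targets, 1 was called, and the interval of Nrarp lay wholly below those of Hes1 and Hey1, with no test between the genes.

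Of 8 other genes of the Hes and Hey family, 0 were called by limma, with a median log2 difference of 0.03. An unadjusted p under 0.05 was found for 1 of the 8, and for 5200 of all 19938 genes. The gene with the highest difference was Hey2, a transcriptional repressor that acts in heart and vessel development. It measured 5.86 in TGFβ cells and 5.56 in untreated cells (difference 0.30, adjusted p = 0.0599), in the dim part of the range. Hey2 passed after each array was centred on its median (0.32, adjusted p = 0.0495) and when the variance model had both an intensity trend and robust estimation (adjusted p = 0.0350). Hes2 had the lowest difference, -0.07 (adjusted p = 0.675).

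Beyond the members, 60 other genes of the pathway were analysed. Of these, 5 were called higher, 4 lower and 51 not at all, which is 15.0% called, close to the 13.6% over all genes, and their median log2 difference was 0.03. Leaving out TGFβ replicate 1 or 2 changed the count of 9 to 4 or 8, and leaving out untreated replicate 1 or 2 changed it to 5 or 7.

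**Figure D4:**
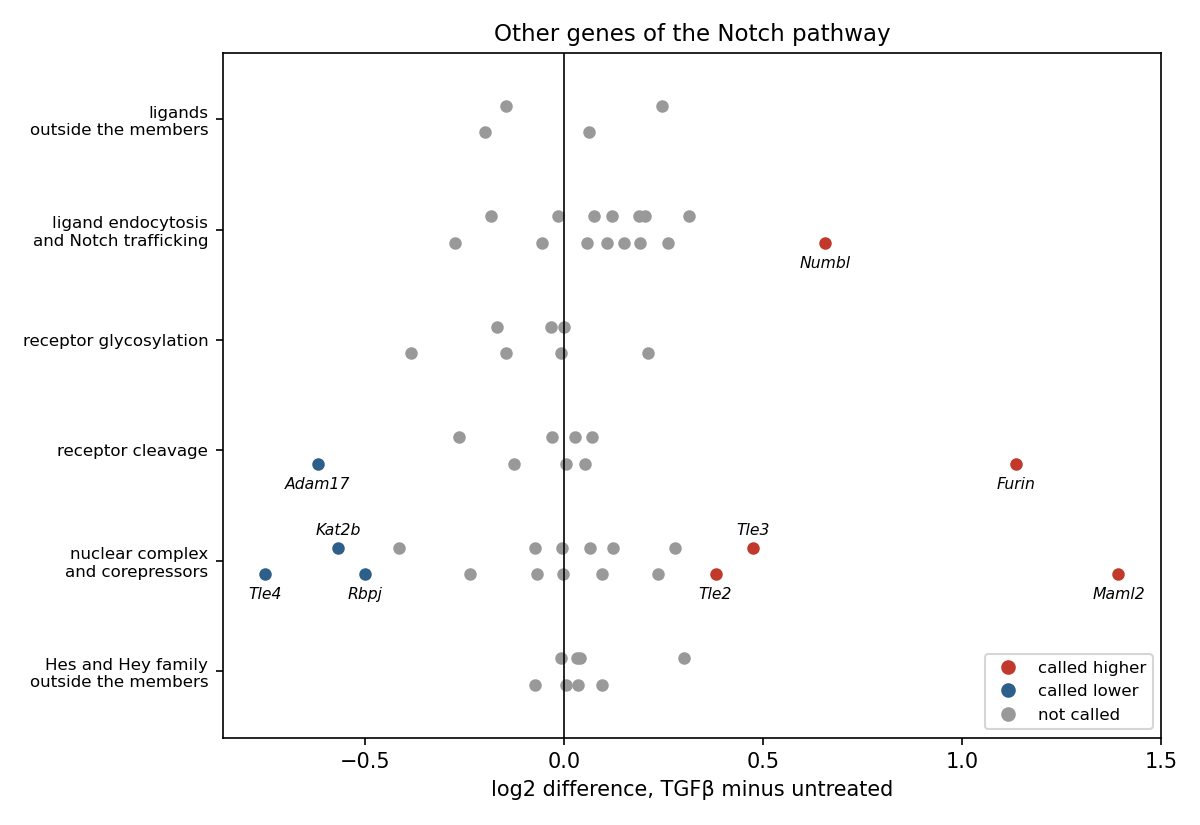
Each point is 1 of the 60 other Notch pathway genes, placed by its log2 difference of TGFβ minus untreated cells (horizontal axis) and by its role (rows), with the 9 called genes named. Maml2 (1.39) and Furin (1.14) lie furthest right, and Tle4 (-0.75) furthest left.

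Of 9 receptor cleavage genes 1 rose, 1 fell and 7 did not pass, which is 22.2% called, against 13.6% of all genes. Furin, the proprotein convertase that is known to cut the Notch precursor on its way to the surface, measured 12.22 and 11.92 in the TGFβ arrays, against 11.01 and 10.85 in the untreated arrays, and rose by 1.14 ± 0.12 (SE, adjusted p = 0.00386). Furin also processes the precursors of TGFβ itself, so it is not a gene of the Notch pathway alone. Adam17, a metalloprotease that can cut Notch outside the membrane, measured 9.86 and 9.84 in the TGFβ arrays, against 10.53 and 10.41 in the untreated arrays, and fell by 0.62 on the log2 scale (adjusted p = 0.00678). Adam10, the metalloprotease best known for ligand-dependent Notch cleavage, differed by 0.07 (95% interval -0.11 to 0.26, adjusted p = 0.676). Of the γ-secretase genes Psen2, Ncstn, Aph1a, Aph1b, Aph1c and Psenen 0 were called by limma. Psenen was the lowest, at -0.26 (adjusted p = 0.118). It was the 1 of them with an unadjusted p under 0.05, which 5200 of all 19938 genes had. Psenen passed when the variance model had both an intensity trend and robust estimation (adjusted p = 0.0469).

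Of 17 genes of the nuclear complex and its corepressors 3 rose, 3 fell and 11 did not pass. That is 35.3% called, against 13.6% of all genes, in a list chosen with earlier results of these arrays known. Rbpj, the DNA-binding partner of cleaved Notch, measured 11.36 and 11.44 in the TGFβ arrays, against 11.96 and 11.84 in the untreated arrays, and fell by 0.50 on the log2 scale (adjusted p = 0.0149). A second Rbpj probe set, between 4.98 and 5.11 in all arrays, differed by 0.05, and with the mean of both the difference was -0.22 (adjusted p = 0.139). The mouse genome also holds Rbpj pseudogenes, whose transcripts the probes may not separate. Dropping TGFβ replicate 1 (-0.46, adjusted p = 0.0590) ended the Rbpj call, as did dropping untreated replicate 1 (-0.44, adjusted p = 0.0817).

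Maml2, a Mastermind coactivator, measured 9.46 and 9.32 in the TGFβ arrays, against 8.34 and 7.65 in the untreated arrays, and rose by 1.39 ± 0.22 (SE, adjusted p = 0.0130). The untreated arrays lay apart from each other but below both TGFβ arrays. Dropping TGFβ replicate 1 ended the call (1.32, adjusted p = 0.0515), and a second Maml2 probe set differed by 0.68. Its relatives Maml1 and Maml3 differed by 0.07 and -0.07 and were not called.

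The acetyltransferase Kat2b, a coactivator also called PCAF, fell by 0.57 (adjusted p = 0.0259). For Kat2b, dropping TGFβ replicate 1 (-0.48, adjusted p = 0.0931) ended the call, as did dropping untreated replicate 1 (-0.45, adjusted p = 0.104). The Groucho-type corepressors, which Hes proteins are known to recruit, went both ways. Tle4 fell by 0.75 (adjusted p = 0.0105), to 7.74 and 7.45 in the TGFβ arrays, against 8.34 and 8.35 in the untreated arrays. Tle3 rose by 0.47 (adjusted p = 0.0259) and Tle2 by 0.38 (adjusted p = 0.0443). Tle1 differed by -0.0044 and was not called.

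The calls of Tle2 and Tle3 were lost when single arrays were dropped, while in those fits their differences stayed between 0.31 and 0.45 for Tle2 and between 0.37 and 0.48 for Tle3. Tle3 had an adjusted p of 0.0778 when TGFβ replicate 1 was dropped, and of 0.104 and 0.0966 when untreated replicate 1 or 2 was. Tle2 had 0.0776 and 0.139 when TGFβ replicate 1 or 2 was dropped, and 0.0808 and 0.199 when untreated replicate 1 or 2 was. Among the uncalled genes of this group, the corepressor Ctbp2 had the highest difference (0.28, adjusted p = 0.0566) and Cir1, an Rbpj-binding corepressor, the lowest (-0.41, adjusted p = 0.144). Cir1 passed when untreated replicate 2 was dropped (-0.62, adjusted p = 0.0404), while dropping untreated replicate 1 gave -0.21 (adjusted p = 0.478).

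Of 15 genes of ligand endocytosis and Notch trafficking 1 rose, 0 fell and 14 did not pass. That is 6.67% called, below the 13.6% of all genes. Numbl, a relative of the Notch inhibitor Numb, measured 9.64 and 9.50 in the TGFβ arrays, against 9.04 and 8.80 in the untreated arrays, and rose by 0.66 (adjusted p = 0.0149). Dropping TGFβ replicate 1 (0.59, adjusted p = 0.0576) ended the call, as did dropping untreated replicate 2 (0.54, adjusted p = 0.0516). Numb differed by -0.06, and Mib1, the ubiquitin ligase that ligands need to signal, by 0.12. The highest and lowest uncalled differences were 0.32 for the Deltex ligase Dtx3l (adjusted p = 0.158) and -0.27 for the Neuralized ligase Neurl1b (adjusted p = 0.238).

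Of 7 receptor glycosylation genes 0 were called by limma. An unadjusted p under 0.05, which 5200 of all 19938 genes had, was found for 1 of the 7. That gene was Lfng, the Fringe glycosyltransferase known to tune which ligands a receptor answers to, at 9.35 and 9.10 in TGFβ arrays and 9.65 and 9.56 in untreated arrays. Its log2 difference was -0.38 (adjusted p = 0.0691), and it passed when the arrays were quantile normalized again (-0.38, adjusted p = 0.0481) or scaled by cyclic loess (-0.38, adjusted p = 0.0462). It also passed when TGFβ replicate 1 was dropped (-0.51, adjusted p = 0.0402). Without any one of the other arrays it did not pass: dropping TGFβ replicate 2 gave -0.26 (adjusted p = 0.185), and dropping untreated replicate 1 or 2 gave -0.34 and -0.43 (adjusted p = 0.261 and 0.144). Poglut2, an O-glucosyltransferase, had the highest difference, 0.21 (adjusted p = 0.266). The Fringe genes Mfng and Rfng differed by -0.0088 and -0.15.

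The genes whose pattern over the 4 arrays was most like that of Jag1 were sought by the root mean square distance of values centred on each gene's own mean, among 10688 genes with a mean level of at least 7. The 5 nearest were Fstl3, a secreted activin inhibitor (distance 0.071 on the log2 scale), Tfpi2, a protease inhibitor (0.084), Uchl1, a ubiquitin hydrolase (0.084), Gng11, a G protein subunit (0.11), and Ret, a receptor tyrosine kinase (0.13). Their log2 differences were 2.78, 2.70, 2.99, 2.76 and 2.60. In all 5, as in Jag1, TGFβ replicate 1 lay above TGFβ replicate 2, an order that the distance itself favours. With 4 arrays this likeness is mainly the size of the rise.

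**Figure D5:**
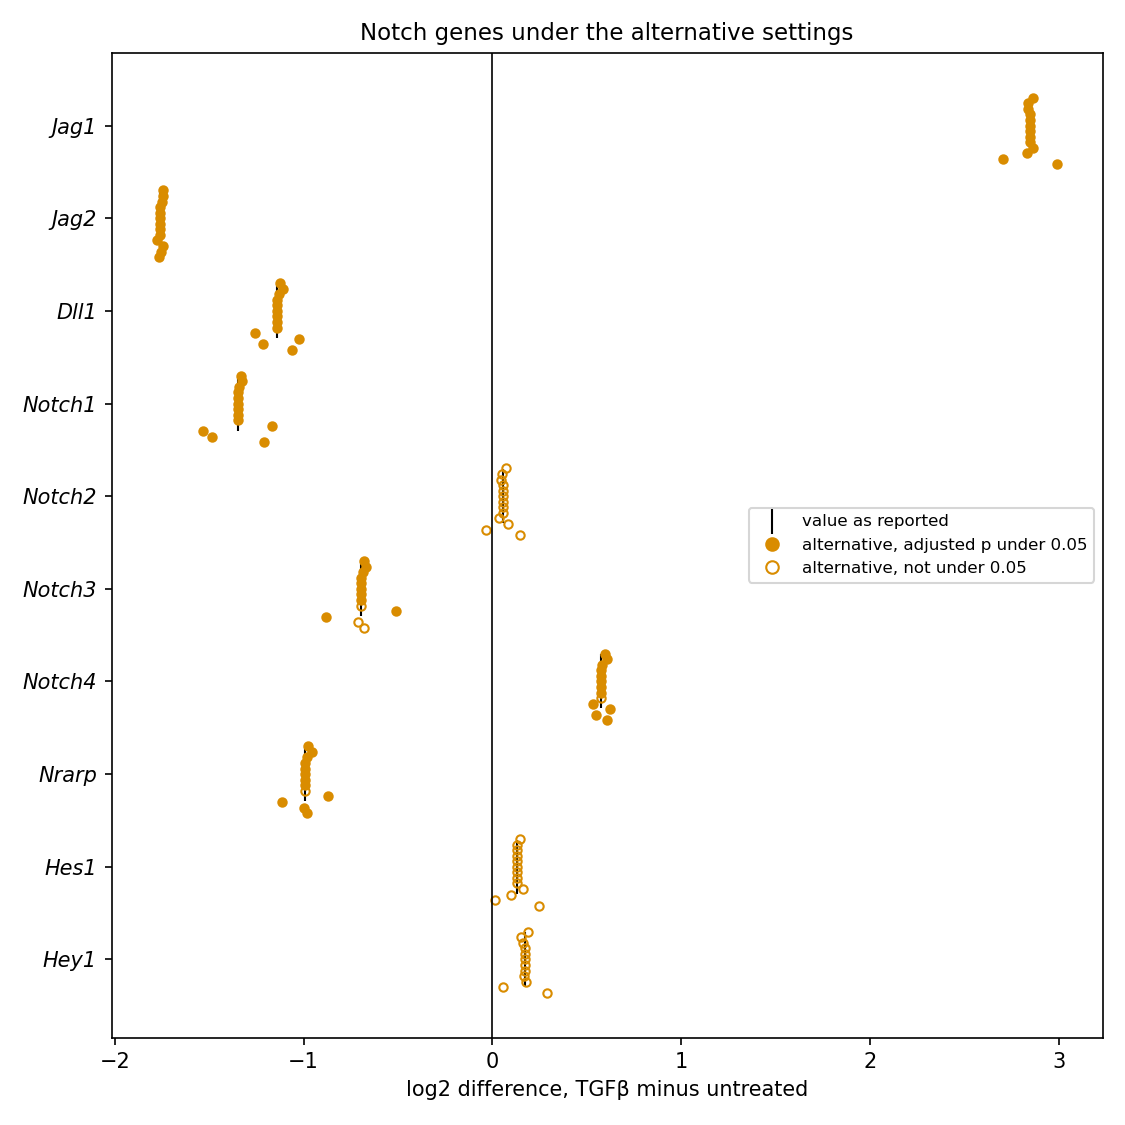
Each row is 1 Notch gene, with its log2 difference of TGFβ minus untreated cells as a black line and each alternative setting as a circle, filled where the adjusted p was under 0.05. Jag1, Jag2, Dll1 and Notch1 have filled circles throughout, Notch3 has 3 open ones, Notch4 and Nrarp 1 each, and Notch2 is the row with a value on the other side of 0 (-0.03).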

How the data were processed

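Total RNA from 4 cultures was amplified, labelled and hybridised to Affymetrix arrays, per the labels' protocols. The authors deposited log2 values, 1 for each probe set, computed by RMA with the R package oligo, per the submitters' processing notes. Versions, probe-set annotation and genome build: not given in the sources used here. Of 35556 probe sets, 21789 carry 1 gene symbol in the platform's gene table, 1621 several and 12146 none; only the first kind was used, with the brightest probe set for the 999 genes that have several. Of 19938 genes, 19856 had an Entrez identifier in the RefSeq table.

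The difference between TGFβ and untreated arrays was tested by limma 3.58.1 under R 4.3.3 (lmFit and eBayes, two-sided, 2 residual and 3.77 prior degrees of freedom), with Benjamini-Hochberg adjustment over all genes. With 2 arrays a group the smallest two-sided p of an exact permutation test is 0.333, so none was run. The procedure was tested on simulated data. Some listed genes are not reported here. The members and lists were chosen with earlier results of these data known. All members were named, with every called gene of the other lists, the uncalled genes with the highest and lowest difference in each list, and the 5 genes nearest to Jag1. Others, such as Mib1, Numb, Maml1, Maml3, Tle1, Mfng and Rfng, were named after their values were seen.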

Additional observations from a re-analysis of the deposited data

How the results depend on the processing

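Under 13 other settings Jag1, Jag2, Dll1 and Notch1 kept direction and call, with log2 differences of 2.70 to 2.99, -1.78 to -1.74, -1.26 to -1.02 and -1.53 to -1.16. Of the 10 members 6 to 7 were called with 1 array left out, of the 60 other pathway genes 4 to 8, and of all genes 1535 to 2260; there the lone array is assumed to vary like the other group. Tested with treat against a minimum log2 change of 0.5, these counts were 4, 1 and 543. Notch3, Notch4 and Nrarp then did not pass (adjusted p = 1, 1 and 0.0544). Of the called markers, Cdh1, Epcam, Krt14 and Col1a1 did not pass treat either, while Pdgfrb did (adjusted p = 0.0139). Notch2 ranged from -0.033 without TGFβ replicate 1 to 0.148 without TGFβ replicate 2 and was not called. With the replicate number as a block 7 members, 5 other pathway genes and 1624 of all genes were called. Rbpj, Kat2b, Tle2 and Tle3, and the markers Krt14 and Col1a1, lost their calls in that fit. Nothing in the labels pairs arrays by number, and same-numbered arrays deviated from their group means with a correlation of -0.213 over genes. A crossed pairing, chosen after seeing the data, called 7, 12 and 3640. Median centring, cyclic loess, quantile normalization, both filters on dim genes, the mean of probe sets and an intensity trend together with robust variances left 7 members called. With the intensity trend and robust variances the marker Krt14 lost its call (limma adjusted p = 0.105). The filter on the dimmer 50% of genes removed Hey1 and so gave no value for it. The causes of these changes were not tested. With 2 arrays a group and no detection calls, small changes in dim genes such as Hey1, Hey2 and Dll3 would be hard to see.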
